A study of Mus musculus with 10 samples.

Results

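The genes described here encode subunits of the pumps that carry sodium and calcium out of the cytosol. Isoforms known from sperm are set beside the isoforms of most cells. The sodium pump subunits are Atp1a4, Atp1b1, Atp1b2 and Atp1b3. The calcium pumps are Atp2b1, Atp2b2 and Atp2b4 of the plasma membrane and Atp2a2 of the endoplasmic reticulum. Each gene was taken by its symbol from array features annotated with that symbol alone, and where several held values the brightest on average stood for the gene. Of the 8 genes 7 were measured, out of 19661 genes in all. Atp2b4, the main calcium pump of mouse sperm, had no feature annotated with its symbol alone, and its expression was not analysed here. Atp1b3 had 2 annotated features, of which 1 held values, and the other measured genes had 1 each.

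The study compared whole testis RNA of 5 wild-type (WT) mice with that of 5 mice homozygous for a disrupted Crem gene (Crem-/-, KO), 1 mouse per Affymetrix Mouse Gene ST array. Both groups were untreated, 8 weeks old and of a mixed 129Pas x C57Bl/J strain, and were killed as the lights came on (0 h circadian time). Crem encodes a transcription factor that spermatids use to switch on genes of sperm formation, and in these mutants, per the study, sperm development stops at round spermatids. The disruption affects every cell of the animal, and whole testis mixes germ cells with Sertoli, Leydig, vascular and immune cells.

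The sodium pump pairs a catalytic alpha subunit with a beta subunit that brings it to the cell surface. Its alpha 4 isoform, encoded by Atp1a4, is made in male germ cells, serves sperm motility and is required for male fertility in mice, while the beta subunits are shared with other tissues. Calcium is exported by the plasma membrane pumps of the Atp2b genes and moved into the endoplasmic reticulum by the pump encoded by Atp2a2, and sperm depend on low resting calcium for regulated movement.

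Values are log2 expression levels. A change is the mean of KO minus the mean of WT with the standard error (SE) of the fit, and a gene was called at a limma adjusted p under 0.05. The arrays lay close together, with medians of 7.11 to 7.15, Pearson's r across features of at least 0.9919 within a genotype and at most 0.9519 between genotypes. Crem itself fell from 10.95 ± 0.06 (SD, n = 5) to 9.24 ± 0.15 (SD, n = 5), a change of −1.71 ± 0.07 (SE; limma adjusted p = 3e-10), and its groups did not overlap. The labels give 4 batches. Batch 2 held 3 WT arrays and KO 3, batch 4 held WT 5 with KO 1, KO 4 and KO 5, and KO 2 and WT 4 each stood alone.

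Of the 7 measured pump genes 3 fell and 4 rose in KO testis. Over all genes 13.2% were called lower and 31.1% higher, 44.3% in either direction. The groups did not overlap for 5 of the 7, against 32.7% of all genes. The median change of the 7 was 0.19, and that of all genes was 0.068. The falls of Atp1a4 and Atp1b3 were far larger than any other change among the 7, which lay between −0.33 and 0.53.

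**Figure D1:**
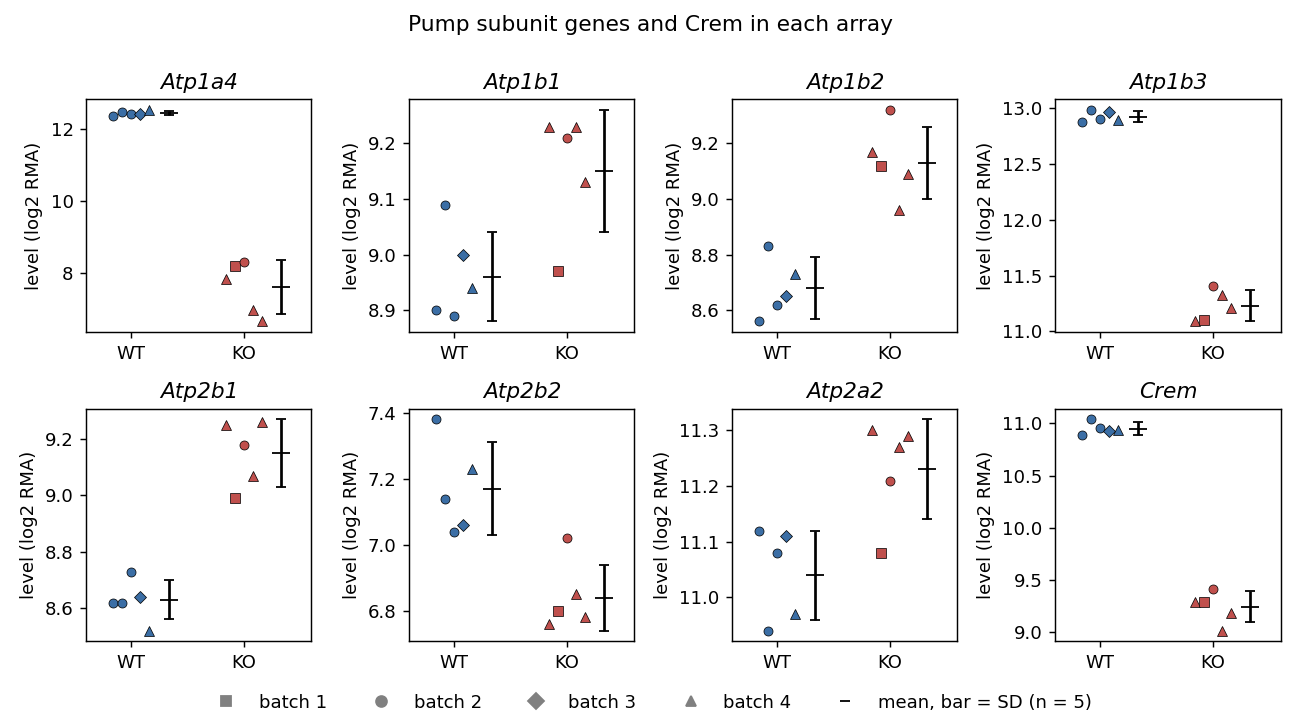
Levels (log2 RMA, vertical axes with separate ranges) of the 7 measured pump genes and Crem in each WT and KO array, with the shape of a point giving its batch and the bar the mean ± SD (n = 5). Atp1a4 and Atp1b3 stand far lower in all KO arrays, while the groups of Atp1b1 and Atp2a2 overlap.

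Because the falls of Atp1a4 and Atp1b3 were the largest among the pump genes, the sequences before their transcription start sites are shown. Each runs from 250 bases before to 50 bases after a start in RefSeq (GRCm38.p6). CREM binds the cAMP response element TGACGTCA and its short forms TGACG and CGTCA, which lie within it, overlap each other in it and are each other's reverse complement, so that a search for both covers both strands. Matches to a short form are in capitals. The Atp1a4 window is chr1:172258375-172258674 on the minus strand, and those of Atp1b3 are chr9:96364382-96364681 and chr9:96363666-96363965, also on the minus strand.
Atp1a4: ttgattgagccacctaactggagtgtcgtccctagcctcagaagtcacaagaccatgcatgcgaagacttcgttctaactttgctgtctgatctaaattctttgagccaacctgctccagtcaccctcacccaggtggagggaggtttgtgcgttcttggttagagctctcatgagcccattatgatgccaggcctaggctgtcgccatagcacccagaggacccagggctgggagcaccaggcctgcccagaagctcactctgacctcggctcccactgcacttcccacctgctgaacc
Atp1b3, first start: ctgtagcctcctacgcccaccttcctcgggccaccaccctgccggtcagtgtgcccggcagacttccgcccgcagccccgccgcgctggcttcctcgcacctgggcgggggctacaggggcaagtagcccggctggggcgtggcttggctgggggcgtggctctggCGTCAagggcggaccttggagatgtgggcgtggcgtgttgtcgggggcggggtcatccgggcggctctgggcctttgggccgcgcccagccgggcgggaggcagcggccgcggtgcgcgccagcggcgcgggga
Atp1b3, second start: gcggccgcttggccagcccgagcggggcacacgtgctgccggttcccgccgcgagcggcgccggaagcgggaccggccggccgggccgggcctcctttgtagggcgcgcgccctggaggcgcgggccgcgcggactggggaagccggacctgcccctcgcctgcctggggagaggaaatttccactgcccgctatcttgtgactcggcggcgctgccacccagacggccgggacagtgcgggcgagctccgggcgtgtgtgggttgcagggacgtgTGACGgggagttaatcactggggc

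The Atp1a4 window held no match. The first Atp1b3 window held CGTCA 84 bases before the start, and the second held TGACG 26 bases after it. Windows were given for 6 of the 8 genes, 10 windows in all, and the genes without one were Atp1b2 and Atp2a2. A short form was found in 4 of the 10 windows, the other matches being in Atp2b1 and Atp2b4, and the full element was found in 0. Among all 32851 windows that RefSeq gave, 20.8% held a short form and 1.79% the full element. A match is a run of letters and was not tested as a binding site.

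Atp1a4, on chromosome 1 at 172223508-172258424 (GRCm38.p6), showed the largest fall among the 7 pump genes. Its level in WT arrays 1 to 5 was 12.37, 12.48, 12.41, 12.42 and 12.53. In KO arrays 1 to 5 it was 7.86, 8.22, 8.33, 6.99 and 6.67. The WT arrays were nearly level, the KO arrays spread widely, and the groups lay more than 4 log2 units apart. The mean fell from 12.44 ± 0.06 to 7.62 ± 0.75 (SD, n = 5 each), a change of −4.83 ± 0.27 (SE; limma adjusted p = 4.54e-09), or 28.4-fold. Among all genes 78 fell by more. KO 2 and KO 3 were the highest of the mutants and KO 4 and KO 5 the lowest, and signal left in single KO arrays lay, on the linear scale, between 1.83% and 5.79% of the mean WT signal. Without KO 2 and KO 3 the change was −5.27. It was −4.09 in batch 2, where KO 3 is the only KO array, and −5.35 in batch 4, where WT 5 is the only WT array.

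The spread of Atp1a4 among KO arrays ran in the order of the elongating spermatid markers. The 6 markers, among them the protamine gene Prm1 and the sperm tail gene Akap4, all fell, with a median change of −5.36. Their summed linear level was 53000 to 65100 in WT. In KO 1 to 5 it was 1910, 4170, 4900, 988 and 868, so that KO 3 was highest and KO 5 lowest for the markers and for Atp1a4 alike. In RNA of a whole tissue, fewer cells of a type and less RNA per cell cannot be told apart. The part of the markers in the fall of Atp1a4 was not tested.

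**Figure D2:**
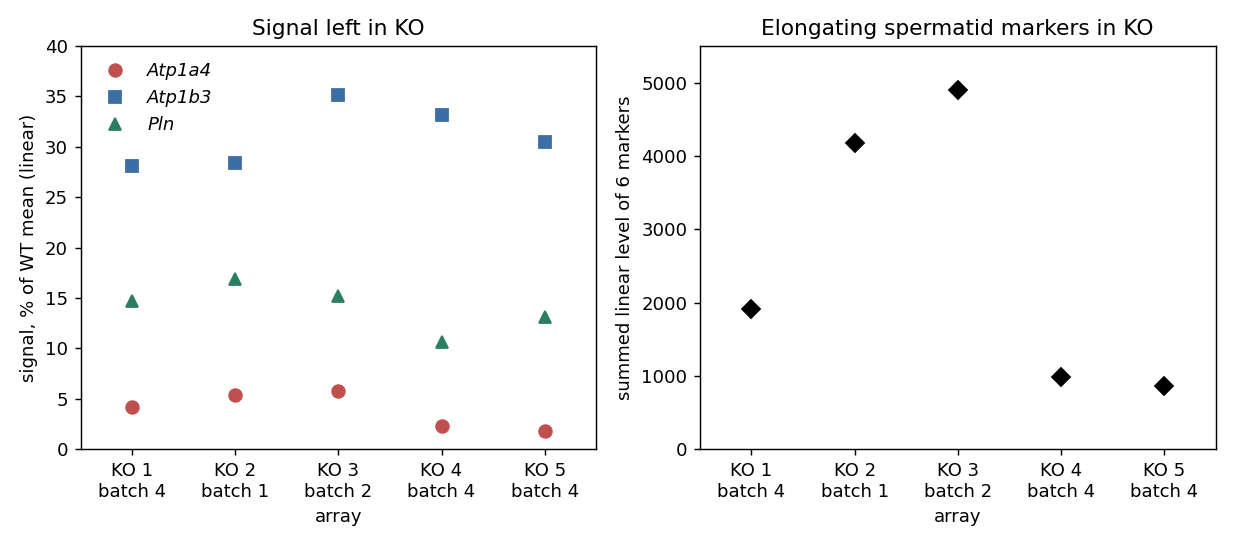
Left, signal of Atp1a4, Atp1b3 and Pln in each KO array as a percentage of the WT mean (linear scale); right, summed linear level of the 6 elongating spermatid markers in the same arrays. Atp1a4 kept 1.83% to 5.79% and the markers were highest in KO 2 and KO 3, while Atp1b3 kept 28.1% to 35.1% in another order.

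The beta subunits did not move together. Atp1b3, which encodes the beta 3 subunit and lies on chromosome 9 at 96332655-96364431 (GRCm38.p6), fell with non-overlapping groups. WT arrays 1 to 5 gave 12.87, 12.98, 12.90, 12.96 and 12.89, and KO arrays 1 to 5 gave 11.09, 11.10, 11.41, 11.33 and 11.21. Both groups were tight, and all KO arrays lay more than a log2 unit below all WT arrays. The mean fell from 12.92 ± 0.05 to 11.23 ± 0.14 (SD, n = 5 each), a change of −1.69 ± 0.07 (SE; limma adjusted p = 1.98e-10), or 3.23-fold, and 542 genes fell by more. KO 3 was again the highest mutant array, but KO 4 came next and KO 1 was lowest. Deviations of Atp1b3 from its group means had a Pearson's r of −0.05 with those of Atp1a4 over the 10 arrays, although their levels had an r of 0.97.

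Atp1b2 encodes the beta 2 subunit, known as an adhesion molecule of glia, and lies on chromosome 11 at 69599728-69605978 (GRCm38.p6). It measured 8.56, 8.83, 8.62, 8.65 and 8.73 in WT arrays 1 to 5 and 9.17, 9.12, 9.32, 8.96 and 9.09 in KO arrays 1 to 5. All KO arrays were above all WT arrays. The change was 0.45 ± 0.08 (SE; limma adjusted p = 0.000317), or 1.37-fold higher. In batch 4 alone the rise was 0.34 and was not called (limma adjusted p = 0.126, against 0.000176 to 0.126 over all 23 alternative fits).

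Atp1b1 encodes the beta 1 subunit of most epithelia and lies on chromosome 1 at 164437099-164458355 (GRCm38.p6). It measured 8.90, 9.09, 8.89, 9.00 and 8.94 in WT arrays 1 to 5 and 9.23, 8.97, 9.21, 9.23 and 9.13 in KO arrays 1 to 5. KO 2 lay within the WT range and the other KO arrays lay above it. The change of 0.19 ± 0.07 (SE; limma adjusted p = 0.0387) was called, but the call was lost in 8 of the 10 fits that each left out 1 array, namely WT 1, 3, 4 or 5 or KO 1, 3, 4 or 5, with changes of 0.17 to 0.24 over the 10 fits and limma adjusted p from 0.0515 to 0.0879 where lost. It was also lost in batch 2 (0.25), in batch 4 (0.26) and with arrays centred on housekeeping genes (0.09), but not when B2m was left out of those genes (0.18; limma adjusted p = 0.0363). B2m, a gene of antigen presentation, itself rose by 0.81 (limma adjusted p = 0.00253). Nme7, which overlaps Atp1b1 in RefSeq, changed by 0.55 (limma adjusted p = 9.06e-06), and whether the features share signal was not tested.

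The difference between the alpha 4 subunit and each beta subunit was tested within arrays, as the log2 level of Atp1a4 minus that of the beta gene. The change of Atp1a4 differed from that of Atp1b1 by −5.02 log2 units, with an SD of the within-array value of 0.08 in WT and 0.78 in KO. It differed by −5.28 from that of Atp1b2 and by −3.13 from that of Atp1b3. In each case WT and KO arrays did not overlap, and the exact permutation test over the 252 ways of dividing the 10 arrays 5 and 5 gave p = 0.00794 (two-sided), the smallest this design allows and the same after adjustment over the 3 pairs tested. The 3 tests share the Atp1a4 values, and no beta gene changed by enough to offset its fall. They add no separate evidence for that fall. Scaling of an array cancels in these differences. In batch 2 they were −4.34, −4.74 and −2.59. Whether the beta subunits differed from one another was not tested.

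**Figure D3:**
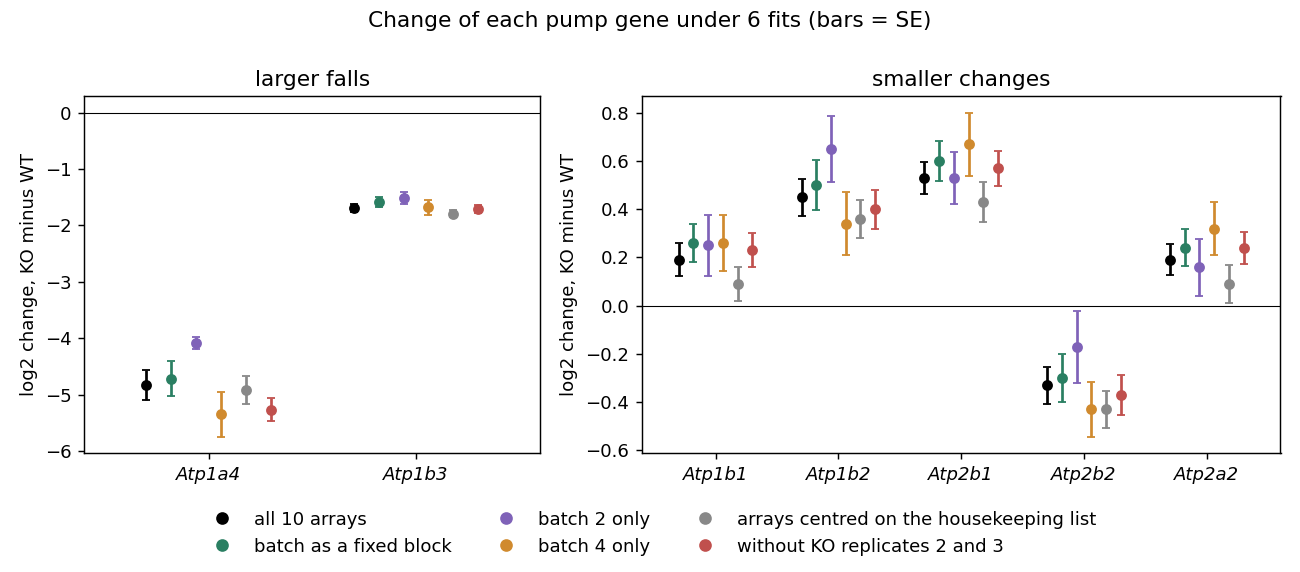
Change of each measured pump gene (log2, KO minus WT, bars = SE) with all 10 arrays and under 5 other fits, with the larger falls on the left and the smaller changes on the right on another scale. Atp1a4 stayed between −5.35 and −4.09 and Atp1b3 between −1.79 and −1.51, while the rises of Atp1b1 and Atp2a2 dropped to 0.09 with arrays centred on housekeeping genes (0.18 each without B2m, not drawn).

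Among the calcium pumps, the widely expressed Atp2b1 rose and Atp2b2 fell slightly. Atp2b1 encodes the plasma membrane pump of most cells and lies on chromosome 10 at 98914630-99026143 (GRCm38.p6). It measured 8.62, 8.62, 8.73, 8.64 and 8.52 in WT arrays 1 to 5 and 9.25, 8.99, 9.18, 9.07 and 9.26 in KO arrays 1 to 5. The groups were well apart. The change was 0.53 ± 0.07 (SE; limma adjusted p = 3.51e-05), or 1.44-fold higher, and it was called in all 23 alternative fits.

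Atp2b2, known from neurons and the hair cells of the inner ear, lies on chromosome 6 at 113743831-114042613 (GRCm38.p6). It measured 7.38, 7.14, 7.04, 7.06 and 7.23 in WT arrays 1 to 5 and 6.76, 6.80, 7.02, 6.85 and 6.78 in KO arrays 1 to 5. The groups barely separated, KO 3 at 7.02 lying next to WT 3 at 7.04. The change was −0.33 ± 0.08 (SE; limma adjusted p = 0.00336). In batch 2 it was −0.17 and was not called (limma adjusted p = 0.475, against 0.000441 to 0.475 over all 23 alternative fits).

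Atp2a2 lies on chromosome 5 at 122453513-122502225 (GRCm38.p6). It measured 11.12, 10.94, 11.08, 11.11 and 10.97 in WT arrays 1 to 5 and 11.30, 11.08, 11.21, 11.27 and 11.29 in KO arrays 1 to 5. KO 2 lay within the WT range. The change of 0.19 ± 0.06 (SE; limma adjusted p = 0.0324) was lost in 6 of the 10 fits that each left out 1 array, WT 2 or 5 or KO 1, 3, 4 or 5, with changes of 0.16 to 0.22 over the 10 fits and limma adjusted p from 0.0511 to 0.083 where lost. It was lost as well in batch 2 (0.16), in batch 4 (0.32) and with arrays centred on housekeeping genes (0.09), but not when B2m was left out of those genes (0.18; limma adjusted p = 0.0411).

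The gene whose levels ran most like those of Atp1a4 over the 10 arrays was Ubqlnl, a ubiquilin-like gene, with a Pearson's r of 0.9991, followed by Gm5893 (0.9990) and Dnajb7 (0.9986), a gene of the DnaJ chaperone family. Their deviations from the group means also ran with those of Atp1a4, with r of 0.98, 0.98 and 0.97. For Atp1b3 the nearest were Osgin1 (0.9969), Lypla1 (0.9968) and Prdx4 (0.9968), a peroxiredoxin of the secretory pathway, with r of deviations of 0.70, 0.70 and 0.81. For Atp2b1 they were Trip6 (0.9947), Pafah1b3 (0.9923) and Ddx3x (0.9915), and for Atp1b2 they were Zfp655 (0.9923), Gpx8 (0.9858) and Mterf4 (0.9809). Atp1b1 was nearest to Cd164 (0.9688), Osbpl11 (0.9628) and Wdr44 (0.9622). Atp2a2 was nearest to Tm7sf3 (0.9711), Cul7 (0.9686) and Usp20 (0.9652), and Atp2b2 to Ptpn7 (0.9588), Foxi3 (0.9455) and Rtbdn (0.9383). These values describe arrays that share the genotype difference, and each was the highest of all genes by choice.

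Of the other sodium and calcium pump genes 6 of 9 were measured, and 2 were lower and 0 higher, with a median change of −0.11. Over the alternative fits 0 to 3 were lower, with 1 when WT 1, WT 2, WT 3, KO 3 or KO 4 was left out and 3 without WT 4 or KO 2. Atp2c1, the calcium and manganese pump of the Golgi, fell from 9.45 ± 0.17 to 8.96 ± 0.13 (SD, n = 5 each), a change of −0.49 ± 0.09 (SE; limma adjusted p = 0.000569). It was not called in batch 2 (−0.51) or in batch 4 (−0.34) alone. The other, Atp2b3, a plasma membrane pump of neurons named after its values were seen, changed by −0.28 (limma adjusted p = 0.0281). The 4 that were not called changed by −0.14 to 0.01.

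Of the partners and small regulators of the pumps 14 of 15 were measured, and 2 were lower and 3 higher, with a median change of −0.01, which lay between −0.11 and 0.02 over the alternative fits and so has no settled sign. Over those fits 1 to 3 were lower and 1 to 4 higher. The largest change was that of Pln, phospholamban, the small membrane protein that restrains the pump of Atp2a2 in heart. Its level was 8.73, 9.07, 8.79, 8.49 and 8.77 in WT arrays 1 to 5 and 6.01, 6.21, 6.06, 5.53 and 5.84 in KO arrays 1 to 5. Every KO array was far below every WT array. The KO mean of 5.93 lay under 5.98, the level below which the lowest 25% of features fall, and whether it stood above background is not known. Signal left in single KO arrays measured 10.6% to 16.9% of the mean WT signal, and the fall could be larger than measured. The measured change was −2.84 ± 0.12 (SE; limma adjusted p = 3.47e-10), with −2.81 in batch 2 and −2.97 in batch 4. Cep85l, which overlaps Pln in RefSeq, also fell, with a change of −1.58 (limma adjusted p = 1.1e-08), and whether the features share signal was not tested.

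Nkain4, which encodes a protein that interacts with the sodium pump, rose from 7.67 ± 0.30 to 8.77 ± 0.09 (SD, n = 5 each), a change of 1.10 ± 0.12 (SE; limma adjusted p = 5.58e-06), with no overlap. Several others were named after their values were seen. Fxyd2, the gamma subunit of the kidney sodium pump, changed by −0.46 and Fxyd1, phospholemman, by 0.50, both called. Bsg and Nptn, which encode membrane glycoproteins that join plasma membrane calcium pumps, changed by −0.04 and −0.17 and were not called.

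Of the exchangers coupled to sodium 19 of 20 were measured, and 4 were lower and 5 higher, with a median change of 0.08, or −0.02 with arrays centred on housekeeping genes and 0.07 when B2m was left out of those. The count lower was 2 without WT 1, WT 3 or WT 5 and 1 with batch as a fixed block. In batch 2 and in batch 4 alone 0 were lower, and 2 and 3 were higher. Slc9a9, a sodium/proton exchanger of endosomes, rose by 1.02 ± 0.11 (SE; limma adjusted p = 7.18e-06). Slc9a8, a sodium/proton exchanger of the Golgi that is needed for the acrosome in mice, rose from 9.81 ± 0.04 to 10.49 ± 0.06 (SD, n = 5 each), a change of 0.68 ± 0.05 (SE; limma adjusted p = 2.27e-07). Slc9c1, a sodium/proton exchanger of sperm, measured 10.92 ± 0.19 in WT and 11.08 ± 0.22 in KO (SD, n = 5 each), named after its values were seen, and was not called (0.16 ± 0.11, SE; limma adjusted p = 0.28). Slc9b1 of the same list, also named after its values were seen, rose by 0.48 ± 0.07 (SE; limma adjusted p = 9.11e-05), with no overlap.

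**Figure D4:**
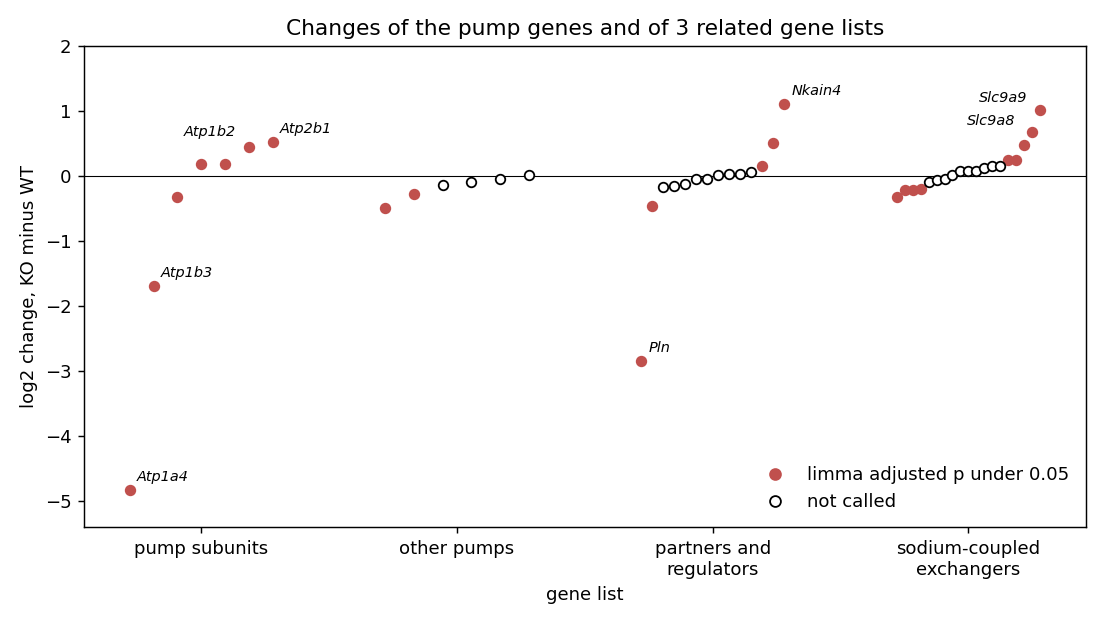
Change (log2, KO minus WT) of each measured pump gene and of each measured gene of the 3 related lists, sorted within a list, with filled points for a limma adjusted p under 0.05. Atp1a4 (−4.83), Pln (−2.84) and Atp1b3 (−1.69) lie far below the rest, and Nkain4 (1.10) and Slc9a9 (1.02) are the highest.

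Markers of some cell types of testis changed with genotype as well. The counts below stand beside 13.2% of all genes called lower and 31.1% called higher. All 6 elongating spermatid markers fell, and 5 of 6 round spermatid markers fell. The round spermatid list had a median change of −0.63. Its summed linear level was 21500 to 22900 in WT and 14200 to 17200 in KO. Within it Spaca1 changed by −4.29 and Camk4 by −3.92, against −0.68 for Tssk1, −0.59 for Pgk2 and −0.51 for Acr. Acrv1 changed by 0.15 and was not called. The spermatocyte list had 4 of 6 higher, at 5610 to 6280 and 6960 to 7450, and the spermatogonia list 1 lower and 2 higher of 5, at 943 to 1130 and 1080 to 1200. Of the somatic lists, the macrophage markers were higher in 5 of 5 (544 to 586 in WT, 847 to 1220 in KO), the endothelial in 3 of 5 (615 to 652, 1180 to 1330) and the Leydig in 3 of 4 measured (6340 to 7970, 8350 to 14000). The Sertoli markers were higher in 2 of 7 (6910 to 8130, 8370 to 10500) and the myoid markers in 1 of 5 (2190 to 2560, 2340 to 3240). The blood markers had 1 lower, Alas2 (−0.68), and 1 higher, Ptprc (0.31), of 2 (416 to 467, 304 to 338). Each sum follows mostly its brightest genes and does not describe every gene of its list. Clu (12.33 in WT, 12.65 in KO) was the brightest Sertoli marker. It was called, as was Fshr (change of 0.35), and Sox9, Wt1, Gata4, Amhr2 and Inhbb were not called. Alas2 was the brighter of the 2 blood markers. The counts called depended on the fit for most lists. The spermatocyte markers had 2 higher with batch as a fixed block, 1 in batch 2 and 0 in batch 4, and the lower spermatogonia marker, Gfra1, was not called in any of these fits. The macrophage markers had 1 higher in batch 4, and the myoid markers had 0 without KO 3 and 2 without KO 2. Over all alternative fits the Leydig count ranged from 2 to 4, the Sertoli count from 1 to 3 (3 without KO 4), and the round spermatid markers had 4 or 5 lower. The Leydig count was 2 without WT 1, WT 2, WT 3, KO 1, KO 3, KO 4 or KO 5. The 6 elongating spermatid markers stayed lower and 3 endothelial markers were higher in each alternative fit. By the mean over the 10 arrays none of the markers lay among the lowest 25% of features, and log2 levels have no zero. The KO mean of Camk4 (5.81) and the WT mean of Cd14 (5.96) did lie under that level of 5.98. The Sertoli, myoid and spermatogonia counts lay near the shares of all genes, and no change of those cell types is read from them. The part of the marker changes in the rises of Atp1b1, Atp1b2, Atp2b1 and Atp2a2 was not tested.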

How the data were processed

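Whole testis RNA was measured on 10 arrays. The authors deposited log2 expression levels made with RMA, normalised between arrays; versions and the build of the probe annotation are not given in the sources used here. Of 35557 deposited rows 9868 were empty in all arrays, and all 25689 others were used. Features were named through the platform annotation, with symbols updated through RefSeq (GRCm38.p6): 20777 had 1 symbol, 232 several and 4680 none. Probes of a transcript are combined by RMA, so no isoform is resolved.

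Genotypes were compared by limma 3.58.1 under R 4.3.3 (lmFit, eBayes, two-sided, no covariate), with Benjamini-Hochberg adjustment across all 25689 features. The script was tested on simulated data. Each array is 1 mouse, and precision is limited by how many arrays there are. Replicates carry numbers in the order of deposition. The members and lists were chosen with earlier results of these data known. Named were Crem, the 8 pump genes, in each pathway list every called gene with a change of at least 0.5 or else the gene of largest change, up to 2 genes per cell type list, and the 3 genes most like each pump gene. The lists were 3 pathway lists, 10 cell type lists and housekeeping genes, of which 9 of 14 were measured (2 lower, 3 higher). Other genes of the pathway lists are said to be named after their values were seen. Further cell type markers, B2m, Nme7 and Cep85l are named outside this rule. Alternatives were other scalings, batch as a block or alone, array weights, eBayes settings, a filter on the lowest 25% of features, the mean of a gene's features and leaving out arrays. The comparisons planned for Atp2b4 could not be run.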

Additional observations from a re-analysis of the deposited data

How the results depend on the processing

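Over 40 results 899 alternative values were computed. Of these 836 stayed the same, 41 lost a call, 5 gained one and 17 moved, and none changed direction. Tested changes stayed the same if they kept direction and side of the threshold, and counts if they stayed within 1.5 times. Differences between subunits in a single batch or with batch as a fixed block did so if they stayed within the pooled SD of the groups. The median changes of lists and of all genes are not among these results, and some changed sign. Atp1a4, Atp1b3 and Atp2b1 were called in all 23 alternatives, Atp1b2 in 22 and Atp2b2 in 22. Centring on housekeeping genes gave 3398 genes lower and 3198 higher (48.5% of calls higher, against 70.1%), with the median change of all genes at −0.029, and 2 pump genes higher; Atp1b1 and Atp2a2 were then at 0.09 each. With B2m left out of the housekeeping genes the counts were 2468 and 5596 (69.4% higher), the median change was 0.060, 4 pump genes were higher and both genes kept their calls. In batch 2 alone 1552 genes were lower and 2208 higher, 58.7% of calls, and 2 pump genes were higher. There Atp1b1 was at 0.25, Atp2a2 at 0.16 and Atp2b2 at −0.17, and the differences of Atp1a4 from Atp1b1, Atp1b2 and Atp1b3 were −4.34, −4.74 and −2.59. In batch 4 alone 1584 were lower and 1902 higher, 54.6% of calls, and 1 pump gene was higher. There Atp1b1 was at 0.26, Atp1b2 at 0.34 and Atp2a2 at 0.32, and the difference of Atp1a4 from Atp1b1 was −5.62. A batch alone uses 4 arrays, with 1 array on one side whose spread is taken from the others. With 1 array left out, the pump genes called higher numbered 2 to 4, Atp1b1 ranged from 0.17 to 0.24 and Atp2a2 from 0.16 to 0.22. Without WT 5, KO 1, KO 3, KO 4 or KO 5 the count was 2. The causes were not tested. No paired analysis was possible because replicate numbers follow the order of deposition and pair no samples.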
